A study of Mus musculus with 25 samples.

Results

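FTY720 given without radiation was compared with saline in mouse lung, on 3 arrays of treated mice and 4 arrays of control mice, 7 of the 25 arrays in the series. The arrays were chosen by their titles, and no measured value entered the choice. Mice of the FTY group received FTY720 at 0.1 mg/kg by intraperitoneal injection 2 times a week. Control mice received phosphate-buffered saline. Other groups serve as comparisons, with 3 mice each: (S)-FTY-phosphonate (fTyS) or SEW-2871 (SEW) at the same dose and schedule, 25 Gy of radiation with FTY720, and 25 Gy alone. All were female wildtype C57BL/6J mice, 14 to 17 weeks old and weighing 20 to 25 g, and none carried an engineered allele according to the labels. Each array measured total RNA of the lung of 1 mouse, so fewer cells of a type and less RNA per cell cannot be told apart. The length of treatment and the hour of collection are not given in the sources used here.

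FTY720 (fingolimod) is a sphingosine analogue that sphingosine kinase converts in the body to a phosphate. The phosphate activates most receptors for sphingosine 1-phosphate (S1P), a lipid that is high in blood and lymph and low inside lymphoid tissue. Lasting exposure takes the receptor S1pr1 off the surface of lymphocytes, which need it to leave lymph nodes and thymus, so that these cells become scarce in blood. In the lung S1pr1 also tightens the contacts between endothelial cells.

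Levels are log2(signal + 16), where a difference of 1 is close to 2-fold for bright genes and understates the change of dim ones. Differences are FTY minus control ± the standard error (SE) of a limma fit over all 25 arrays, in which 12929 genes were tested. A gene was called where limma's p, adjusted by Benjamini-Hochberg over all genes tested, was 0.05 or less, and the words rose and fell are kept for such genes. The median 95% confidence interval reached 0.208 log2 units to either side of a difference. Array medians of the signal lay between 118.33 and 129.58 over the 25 arrays, and the number of arrays limits the precision. Lung markers were high on each of the 7 arrays: Sftpc of alveolar type 2 cells lay at 13.25 to 13.34 on FTY arrays and 13.27 to 13.40 on control arrays, and Cdh5 of endothelium at 12.36 to 12.54 and 12.39 to 12.63.

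Some arrays stood apart before any comparison. FTY replicate 3 exceeded every other array by at least 1 log2 unit at 67 of 18193 genes, against a median of 1 gene and at most 15 genes for the other 24 arrays. Control replicate 2 carried skeletal muscle genes, with a list mean of 10.80 against 6.33 to 6.62 on the other control arrays and 6.56 to 6.99 on FTY arrays. Control replicate 4 was the highest control array for p53 target genes and for monocyte genes. Fat genes had list means of 11.23, 8.90 and 11.40 on FTY arrays 1 to 3, against 8.33, 10.13, 8.90 and 8.02 on control arrays 1 to 4. An index of RNA integrity also separated the groups: the log2 ratio of the 3′ over the 5′ probe set of Gapdh was 0.03, -0.02 and -0.10 on FTY arrays, against 0.34, 0.08, 0.35 and 0.10 on control arrays. The same ratio for Actb was 0.41, 0.37 and 0.43 on FTY arrays, against 0.54, 0.53, 0.61 and 0.44 on control arrays. Neither ratio overlapped between the groups.

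With FTY720, 353 of 12929 genes differed from control (2.73%), of which 62 rose (0.48%) and 291 fell (2.25%). Over 2-fold changes were few, with 11 genes higher and 8 lower. The largest increases were those of immunoglobulin genes, the heat shock gene Hspa1a and the clock genes Nfil3 and Arntl, and the largest decrease was that of the clock output gene Dbp. Of the called genes, 341 had no overlap between the 3 FTY and the 4 control arrays, and 15.3% of all genes tested had none. The median difference over all genes was -0.01, and 2389 genes had an unadjusted p under 0.05. With each array centred on its median, 50 genes rose and 106 fell, and with quantile normalization 86 and 173, so that the share of higher calls was 32.1% and 33.2%, against 17.6% without these steps.

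The count rests on few arrays and on the fit. It was 1 with the 7 arrays compared fitted alone, 89 with the 13 unirradiated arrays and 951 with array weights. It was 35 without FTY replicate 3, 96 without FTY replicate 1, 37 without control replicate 3, 151 without control replicate 2 and 619 without control replicate 1. Of the 353 genes 32 were still called without FTY replicate 3. With the Gapdh ratio as a covariate no gene was called (0 genes; smallest adjusted p = 0.0523 in limma; 1479 genes at an unadjusted p under 0.05), while all 353 kept their sign and the median SE was 1.13 times as large. A total of 21 genes were called in the full fit and without each of the 7 arrays. They were Crem and Tnfrsf12a among genes that rose, and, among genes that fell, Dbp, Prdm8, Prr5l, Ier3, Zbed6, Gria3, Pgpep1, Trp53bp2, Spry2, Mboat2, Ttc7, Mir22hg, Brd7, Irx3, Rad51d, Pmepa1, Sp1, Rfng and 2410022M11Rik.

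Clock genes held the largest share of calls of any list of 10 or more genes: 2 of 20 tested rose and 6 fell, or 40.0%, against 2.73% of all genes. The clock of lung cells is a loop. Arntl (also called Bmal1) pairs with Clock or Npas2 and switches on genes that carry an E-box, among them the Per and Cry genes, whose products shut the pair down, and Nr1d1 and Nr1d2, whose products repress Arntl. Dbp, Tef and Hlf are output factors that activate genes through the D-box, where Nfil3 represses. The list was chosen with earlier results of these data known.

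In the 250 bases before their annotated starts, 3 of the 8 called clock genes carried one of the motifs searched on both strands, and these 3 windows are shown as examples of each motif (RefSeq, GRCm38.p6, gene strand, 5′ to 3′). The capitals mark the D-box (TTATGTAA) at -205 and -158 of Per3 (chr4:151044666-151044915, minus strand), the E-box (CACGTG) at -138 of Tef (chr15:81811164-81811413, plus strand; the other annotated start has an E-box at -127) and the cAMP response element (TGACGTCA) at -9 of Hlf (chr11:90390918-90391167, minus strand).
Per3: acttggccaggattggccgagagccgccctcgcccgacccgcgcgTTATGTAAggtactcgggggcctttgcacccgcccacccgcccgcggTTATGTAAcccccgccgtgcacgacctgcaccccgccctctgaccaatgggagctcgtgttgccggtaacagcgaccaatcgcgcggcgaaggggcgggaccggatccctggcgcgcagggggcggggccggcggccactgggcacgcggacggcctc
Tef: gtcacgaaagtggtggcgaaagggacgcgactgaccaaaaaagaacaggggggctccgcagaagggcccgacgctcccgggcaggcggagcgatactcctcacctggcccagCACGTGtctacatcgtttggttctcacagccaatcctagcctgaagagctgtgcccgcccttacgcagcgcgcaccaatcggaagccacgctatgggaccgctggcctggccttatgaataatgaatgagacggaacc
Hlf: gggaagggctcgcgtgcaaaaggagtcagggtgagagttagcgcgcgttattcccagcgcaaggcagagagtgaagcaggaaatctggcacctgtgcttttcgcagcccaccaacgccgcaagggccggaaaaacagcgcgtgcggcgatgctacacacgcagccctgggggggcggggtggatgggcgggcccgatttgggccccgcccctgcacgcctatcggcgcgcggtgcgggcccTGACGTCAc
Of 32851 such windows, 0.819% hold this D-box, 6.02% this E-box and 1.55% this cAMP response element. The windows of Arntl, Nfil3, Dbp, Nr1d1 and Nr1d2 held none of the 3. Windows of genes that did not fall held motifs too. Ciart (-0.02 ± 0.12) has 3 E-boxes and 1 start of Per1 (-0.12 ± 0.21) has 1, neither gene being called, and 1 start of Creb5, which rose, has an E-box and a cAMP response element. A match is a run of letters, not evidence of binding.

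Dbp had levels of 7.76, 9.02 and 8.26 on FTY arrays, against 10.16, 11.65, 11.70 and 10.62 on control arrays. All FTY values lay below all control values, and the fall of -2.69 ± 0.45 (0.155-fold; adjusted p = 0.00672) was the largest decrease of any called gene. The other 18 arrays of the series ran from 9.19 through a median of 10.34 to 11.29, so that the FTY group was the lowest and controls 2 and 3 the highest.
Per3, a period gene, had levels of 7.92, 8.32 and 7.80 on FTY arrays, against 9.13, 10.07, 9.90 and 9.30 on control arrays. It fell by 1.59 ± 0.28 (adjusted p = 0.00804). Tef fell by 0.91 ± 0.17, with 10.35, 10.61 and 10.37 on FTY arrays, against 11.21, 11.58, 11.52 and 11.10 on control arrays. For both genes every FTY array lay below every control array.
Hlf had 8.11, 8.18 and 8.31 on FTY arrays and 8.82, 9.94, 9.48 and 8.93 on control arrays (-1.09 ± 0.26). Nr1d1, the repressor also called Rev-erb alpha, had 7.40, 7.79 and 6.94 on FTY arrays and 8.57, 8.66, 9.19 and 8.06 on control arrays (-1.25 ± 0.26). Its paralogue Nr1d2 had 10.92, 11.31 and 10.97 on FTY arrays and 11.62, 12.12, 11.99 and 11.57 on control arrays (-0.76 ± 0.17). In each of the 3 genes the groups did not overlap.

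The genes that rose lie on the other limb of the loop. Arntl had 9.47, 9.17 and 9.42 on FTY arrays, against 8.62, 7.02, 7.43 and 8.11 on control arrays, a rise of 1.56 ± 0.36 (2.94-fold; adjusted p = 0.0288). Nfil3 had 9.25, 8.35 and 8.17 on FTY arrays, against 7.83, 6.22, 5.33 and 7.70 on control arrays, a rise of 1.82 ± 0.45 (adjusted p = 0.0337). For both genes control replicates 2 and 3 were the lowest arrays, the same arrays that were highest for Dbp. Npas2, the partner of Arntl, had 8.14, 7.49 and 7.997 on FTY arrays, against 6.91, 6.26, 6.17 and 6.97 on control arrays, and did not pass the test (1.30 ± 0.39, adjusted p = 0.0819).
Other clock genes gave smaller differences that did not pass: Per2 -0.65 ± 0.28, Bhlhe40 -0.56 ± 0.17, Cry2 -0.31 ± 0.10, Cry1 0.34 ± 0.15 and Clock 0.23 ± 0.09. Per1, which many stimuli induce directly, differed by -0.12 ± 0.21. Over the 20 genes the median difference was -0.25. The hour of collection is not given in the sources used here, and its part in the clock differences was not tested. Of the 8 called genes, Dbp was called without each single array, 1 was called without FTY replicate 3 and 2 without control replicate 3. None was called with the Gapdh ratio as a covariate, where Dbp had -2.66 ± 0.52 and Arntl 1.45 ± 0.42. With the probe sets of each gene averaged, Arntl had 1.06, Per3 -1.10 and Hlf -1.22, all called. Nr1d2 then had -0.79 and was not called (adjusted p = 0.0553 in limma).

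**Figure D1:**
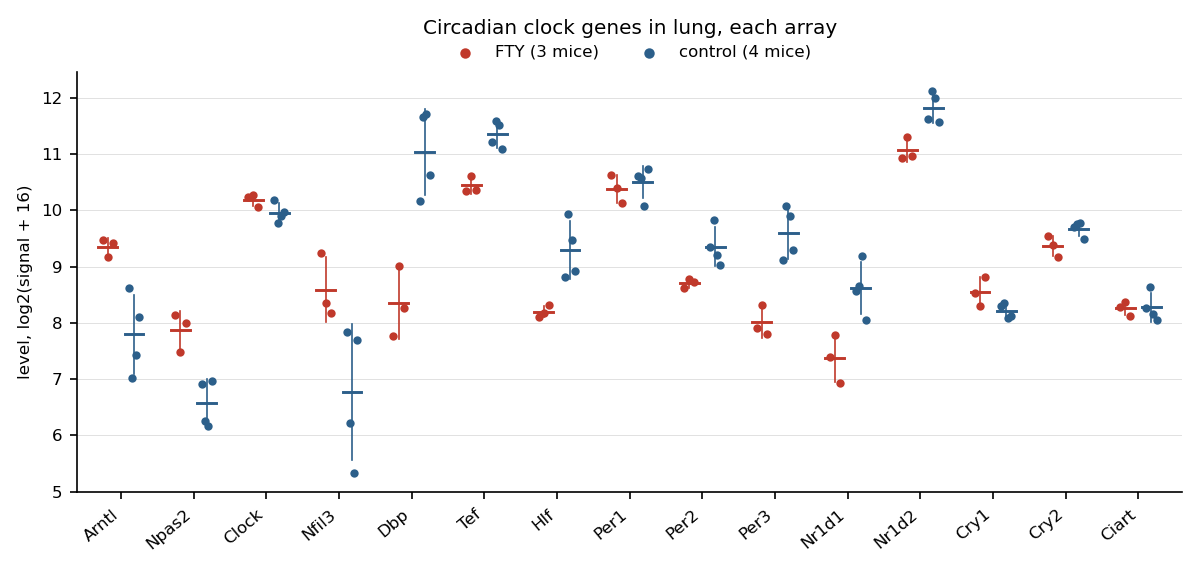
Levels of 15 clock genes as log2(signal + 16), on each of 3 FTY arrays (red, left of each pair) and 4 control arrays (blue), with bars for the mean and lines for the SD. Dbp, Tef, Hlf, Per3, Nr1d1 and Nr1d2 lie lower on FTY arrays, and Arntl, Npas2 and Nfil3 higher, with no overlap between groups in these genes.

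Genes of the heat shock response gave 4 increases and no decrease among 17 tested (23.5% called, against 2.73% of all genes), with a median difference of 0.34. Hspa1a, the stress-inducible Hsp70 chaperone, had 11.23, 10.87 and 11.18 on FTY arrays, against 10.34, 9.40, 8.36 and 8.60 on control arrays. Control arrays were spread more widely than FTY arrays, and the rise was 1.92 ± 0.46 (3.78-fold; adjusted p = 0.03). Its neighbour copy Hspa1b, whose near-identical sequence can share probes, had 12.51, 12.25 and 12.45 on FTY arrays, against 12.19, 11.07, 9.78 and 10.12 on control arrays (1.61 ± 0.44, adjusted p = 0.0529).
The co-chaperones moved with them. Dnajb1, the Hsp40 partner of Hsp70, had 11.15, 11.05 and 11.27 on FTY arrays and 10.64, 10.62, 9.77 and 9.93 on control arrays, and rose by 0.92 ± 0.23. Dnaja1 rose by 0.62 ± 0.14, with 12.60, 12.46 and 12.53 on FTY arrays and 12.37, 11.93, 11.56 and 11.81 on control arrays. Stip1, which links Hsp70 to Hsp90, rose by 0.45 ± 0.12, although FTY replicate 2 at 10.28 lay below control replicate 1 at 10.32. The constitutive Hspa8 differed by 0.08 ± 0.07, and Cirbp, a cold-inducible RNA-binding protein, by -0.36 ± 0.20. Control replicate 1 was the highest control array for all 4 called heat shock genes. Without it all 4 were called, and without FTY replicate 1, 2 or 3 none was. None was called without control replicate 3 or with the Gapdh ratio as a covariate. Dnajb1 alone was called without control replicate 2, and Stip1 alone without control replicate 4. With the probe sets of each gene averaged, Dnaja1 had 0.56 and was not called (adjusted p = 0.104 in limma).

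Single transcription factor genes were among the increases. Nr4a3, an orphan nuclear receptor, had 9.97, 9.39 and 9.40 on FTY arrays, against 8.68, 8.005, 7.37 and 8.98 on control arrays, and rose by 1.33 ± 0.28 (adjusted p = 0.0194). Other probe sets of Nr4a3 differed by -0.11 to 0.30. Crem, a factor that acts at cAMP response elements, had 9.28, 9.19 and 8.85 on FTY arrays, against 8.61, 8.01, 7.55 and 8.28 on control arrays. It rose by 0.995 ± 0.18 (adjusted p = 0.00966), with no overlap and with each array left out in turn. Creb5, of the same family of factors, had 8.17, 8.53 and 7.69 on FTY arrays, against 7.48, 7.36, 6.76 and 6.84 on control arrays (1.02 ± 0.19), and its other probe sets differed by -0.18 to 0.37. Tnfrsf12a, the receptor of the cytokine TWEAK, had 9.78, 10.001 and 9.57 on FTY arrays, against 9.15, 9.11, 8.63 and 8.96 on control arrays, and rose by 0.82 ± 0.13 (adjusted p = 0.00568).
Of 23 immediate early genes tested, 1 rose (Nr4a3) and 3 fell, or 17.4%, against 2.73% of all genes, with a median of -0.17. Ccn1, a secreted matrix protein induced by growth factors, had 10.61, 10.60 and 10.34 on FTY arrays, against 11.07, 11.70, 11.98 and 12.36 on control arrays, and fell by 1.26 ± 0.23 (adjusted p = 0.00889). Ier3, an early gene linked to cell survival, fell by 0.55 ± 0.10, with 11.02, 11.55 and 11.29 on FTY arrays and 11.63, 11.80, 11.99 and 11.93 on control arrays. Egr1, a zinc finger factor, fell by 1.24 ± 0.33, but FTY replicate 1 at 10.70 exceeded control replicate 1 at 10.66. Fos (-0.89 ± 0.26, adjusted p = 0.0714) and Junb (-0.51 ± 0.14, adjusted p = 0.0589) lay lower without overlap and did not pass, and Nr4a1 differed by -0.62 ± 0.29. Of the 4 called early genes, Ier3 alone was called without FTY replicate 3.

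Antibody genes gave the largest increases. Of 13 genes of plasma cells and immunoglobulins tested, 3 rose and 1 fell (30.8%, against 2.73% of all genes), with a median of 0.40, or 0.19 without FTY replicate 3. None of the 4 was called without FTY replicate 1, FTY replicate 3 or control replicate 3, or with the Gapdh ratio as a covariate. Jchain, which joins the units of IgA and IgM, had 11.90, 11.42 and 12.22 on FTY arrays, against 9.18, 9.68, 9.30 and 9.38 on control arrays, a rise of 2.46 ± 0.55 (5.50-fold; adjusted p = 0.0236). Igha, the heavy chain of IgA, had 11.33, 11.62 and 11.67 on FTY arrays, against 9.56, 9.28, 9.60 and 10.20 on control arrays (1.88 ± 0.47). The light chain gene Iglv1 had 9.72, 8.76 and 9.97 on FTY arrays, against 6.94, 7.11, 6.74 and 7.22 on control arrays (2.48 ± 0.61). In these 3 genes the lowest FTY array lay over 1 log2 unit above the highest control array.
Light chain genes outside the list rose as well, among them Igkv8-30 by 1.84 ± 0.40 and Igk by 0.96 ± 0.24. Immunoglobulin genes share sequence, so that probe sets can detect more than 1 of them. Other probe sets of Iglv1 differed by 0.22 to 0.59. Ighm, the heavy chain of IgM, had 12.22, 11.46 and 12.34 on FTY arrays, against 9.87, 10.34, 10.49 and 10.49 on control arrays, and did not pass (1.71 ± 0.48, adjusted p = 0.0634).
Among genes of the plasma cell program other than antibody none rose, though 10 of the 13 tested members of the list lay above 0. Mzb1, a chaperone of antibody secretion, differed by 0.53 ± 0.29, Prdm1 by -0.47 ± 0.13, and Sdc1, which epithelium also expresses, fell by 0.19 ± 0.04. Of 17 genes of B cells none passed, with a median of -0.10: Ms4a1 (CD20) differed by 0.20 ± 0.42 and Cd79a by -0.43 ± 0.43. The 4 plasma cell markers (Jchain, Iglv1, Mzb1 and Tnfrsf17) summed to a signal of 4989, 3491 and 6457 on FTY arrays and 927, 1233, 1060 and 1108 on control arrays. Jchain and Iglv1, the called genes, make up most of that sum, while Mzb1 overlapped between the groups. Tnfrsf17 overlapped too, with 5.21, 5.44 and 5.42 on FTY arrays and 5.19, 5.46, 4.83 and 5.23 on control arrays. Its level lay below the filter, so it was not tested and its overlap says little. FTY replicates 1 and 3, the higher 2 of the 3 for the plasma cell sum, were also the arrays with high fat genes. The 2 measured fat markers summed to 6135, 949 and 7870 on FTY arrays and 498, 2331, 1089 and 335 on control arrays. Other values did not follow that order. Igha was lowest on FTY replicate 1. Control replicate 2 had a higher fat sum than FTY replicate 2 (2331 against 949) and a lower plasma cell sum (1233 against 3491). With the means of fat and skeletal muscle genes as covariates none of the 4 genes was called: Jchain had 2.05 (adjusted p = 0.0674), Igha 2.02 (adjusted p = 0.0709), Iglv1 1.85 (adjusted p = 0.154) and Sdc1 -0.18 (adjusted p = 0.0557) in limma. Jchain on the other 18 arrays ran from 9.28 through a median of 11.25 to 12.55, so that the control group sat at the low end of the series.

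**Figure D2:**
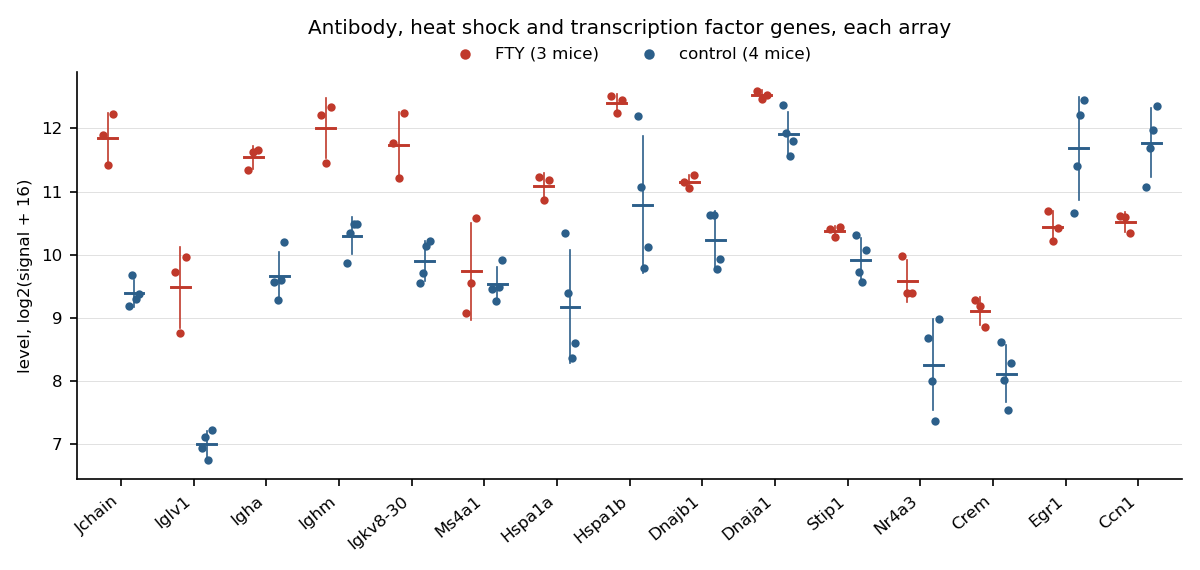
Levels of antibody, heat shock and transcription factor genes as log2(signal + 16), on each of 3 FTY arrays (red, left of each pair) and 4 control arrays (blue), with bars for the mean and lines for the SD. Jchain lies at 11.42 to 12.22 on FTY arrays and 9.18 to 9.68 on control arrays, while the B cell gene Ms4a1 overlaps between the groups.

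Genes of S1P itself gave 3 decreases and no increase among receptors and enzymes. Over all genes 291 of the 353 calls were decreases as well, and each share below rests on only 1 or 2 calls. Of 4 receptors tested 1 fell (25.0%, against 2.73% of all genes), namely S1pr3, found on muscle cells and fibroblasts of the vessel and airway wall. It had 10.85, 10.90 and 10.65 on FTY arrays, against 10.92, 11.21, 11.36 and 11.41 on control arrays, and fell by 0.42 ± 0.10 (adjusted p = 0.0254). FTY replicate 2 and control replicate 1 all but met. S1pr1, the receptor that the phosphate of FTY720 removes from the cell surface, had 10.87, 10.98 and 10.27 on FTY arrays, against 10.75, 9.68, 9.77 and 10.34 on control arrays. The groups overlapped, and the difference of 0.57 ± 0.26 did not pass (adjusted p = 0.249). S1pr2 (-0.16 ± 0.11) and S1pr4 (0.13 ± 0.16) overlapped as well.
Among 11 kinases, phosphatases, the lyase and carriers tested, 2 fell (18.2%, against 2.73% of all genes). Sgpp2, a phosphatase that removes the phosphate of S1P, had 9.47, 9.63 and 8.92 on FTY arrays, against 10.05, 9.83, 10.03 and 9.88 on control arrays (-0.61 ± 0.13, adjusted p = 0.0223). Its relative Sgpp1 had 10.40, 10.49 and 10.61 on FTY arrays, against 10.66, 10.69, 10.79 and 10.74 on control arrays (-0.22 ± 0.06, adjusted p = 0.0462). Sphk2, the main kinase of FTY720, differed by -0.18 ± 0.08, Sphk1 by 0.01 ± 0.17, the S1P lyase Sgpl1 by 0.15 ± 0.10, the exporter Spns2 by -0.23 ± 0.10 and the lipid phosphatase Plpp1 by 0.20 ± 0.12. None of these 5 passed.
Of 19 enzymes of ceramide and sphingomyelin 1 fell (5.26%, against 2.73% of all genes): Degs1, the desaturase that makes ceramide, fell by 0.14 ± 0.04 (adjusted p = 0.0432), while its other probe set differed by 0.06. Cerk, the ceramide kinase, had 9.14, 9.19 and 9.08 on FTY arrays, against 8.78, 8.71, 8.80 and 8.86 on control arrays, without overlap, and did not pass (0.35 ± 0.11, adjusted p = 0.0901). None of the 4 called genes of this pathway was called without FTY replicate 3 or without control replicate 3. With each array centred on its median none was called, nor with the Gapdh ratio or fat and skeletal muscle genes as covariates. S1pr3, Degs1 and 1 of the 2 phosphatases were still called with quantile normalization.

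**Figure D3:**
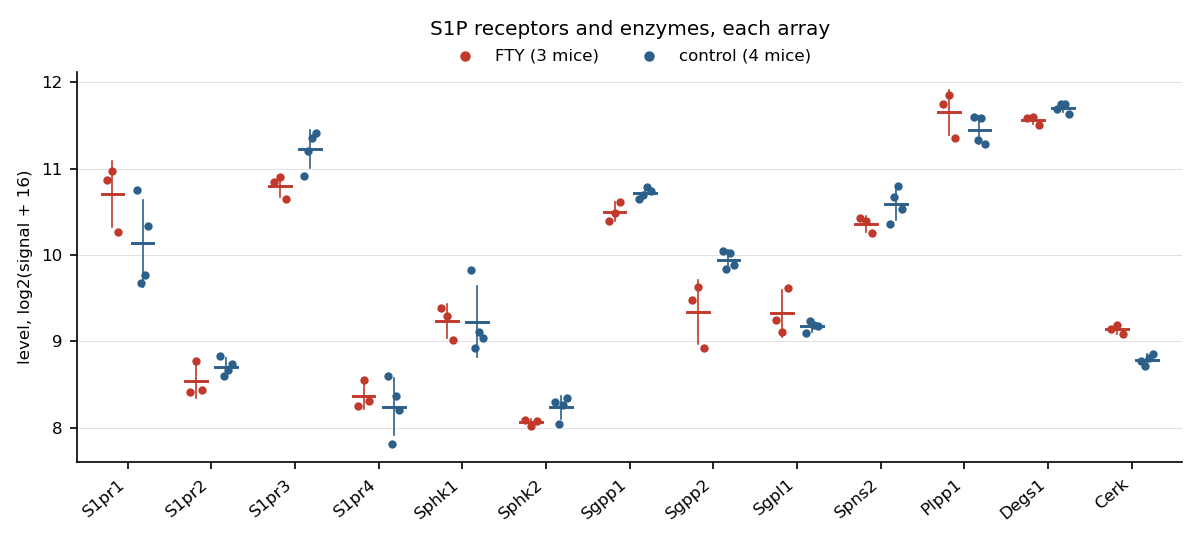
Levels of S1P receptors and of enzymes of S1P and ceramide as log2(signal + 16), on each of 3 FTY arrays (red, left of each pair) and 4 control arrays (blue), with bars for the mean and lines for the SD. S1pr3, Sgpp1, Sgpp2 and Degs1 lie lower on FTY arrays by 0.14 to 0.61, and S1pr1 overlaps between the groups.

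Genes of T cells were high on 1 FTY array only. The mean over 18 T cell genes tested was 7.67, 7.87 and 9.62 on FTY arrays 1 to 3, against 7.88, 7.75, 7.94 and 7.95 on control arrays. The 3 T cell markers measured (Cd3d, Cd3e and Cd3g) summed to a signal of 393, 468 and 2652 on FTY arrays and 492, 346, 420 and 436 on control arrays. None of the 18 genes was called, and their median difference was 0.47 with FTY replicate 3 and -0.10 without it. FTY replicate 3 was the highest of the 7 arrays for 17 of the 18 genes and the highest of all 25 arrays for 15. Cd3d, a chain of the T cell receptor complex, had 7.48, 7.76 and 10.27 on FTY arrays, against 7.89, 7.57, 7.83 and 7.69 on control arrays (0.76 ± 0.41, and -0.13 without FTY replicate 3). Cd8a, the co-receptor of cytotoxic T cells and of most thymocytes, had 6.52, 6.81 and 10.51 on FTY arrays, against 6.81, 6.52, 7.34 and 6.89 on control arrays (1.06 ± 0.57, and -0.22 without it).
Other members followed that array. Themis, needed for T cell selection in the thymus, reached 10.15 there, against 6.50 and 6.43 on the other FTY arrays and 6.53 to 6.92 on control arrays. Lat, an adaptor of the receptor, had 8.06, 8.34 and 10.56 on FTY arrays and 7.66 to 8.08 on control arrays. Bcl11b and Satb1, factors of developing T cells, reached 11.58 and 11.77 on FTY replicate 3. On FTY replicates 1 and 2 Bcl11b had 8.25 and 8.84, below the 8.89 to 9.28 of control arrays, and Satb1 had 8.69 and 9.05, below 9.21 to 9.50. Without FTY replicate 3 the differences were -0.56 for Bcl11b and -0.44 for Satb1. Il7r, the receptor of interleukin-7, was higher on all 3 FTY arrays, with 8.89, 8.97 and 9.32 on FTY arrays and 8.86, 8.11, 8.56 and 8.65 on control arrays (0.52 ± 0.20, adjusted p = 0.18). Ccr7, which guides naive T cells to lymph nodes, had 7.52, 7.80 and 8.31 on FTY arrays and 7.93, 7.89, 7.88 and 8.73 on control arrays.

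Thymus genes separated FTY replicate 3 further. Rag1, a subunit of the enzyme that recombines antigen receptor genes in immature lymphocytes, stood at 11.91 there, against 4.09 and 4.41 on FTY replicates 1 and 2, 4.17 to 4.57 on control arrays and 4.10 to 4.79 on the other 18 arrays. Dntt, which adds bases during that recombination, stood at 10.40, against 5.94 and 6.00 on the other FTY arrays and 5.62 to 6.00 on control arrays. The 4 thymus markers (Rag1, Rag2, Dntt and Ptcra) summed to a signal of 91, 105 and 5493 on FTY arrays 1 to 3, against 102, 79, 87 and 99 on control arrays and 77 to 112 on the other 18 arrays. None of the 4 passed the filter on low levels, so none was tested.
Further genes known from thymus led the same array: Prss16, a protease of thymic epithelium, at 10.67 (other 24 arrays up to 6.42), Ccr9, a homing receptor of thymocytes, at 11.05 (up to 7.08), and Ccl25, its ligand, at 10.09 (up to 6.79). Glycam1, made by the high endothelial vessels of lymph nodes, stood at 10.48 (up to 7.23). The liver gene Alb was also highest there, at 8.15, against 6.04 to 6.36 on control arrays.

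Cell cycle genes gave the same picture. The mean over 17 genes of G1 and S phase was 8.10, 8.16 and 9.27 on FTY arrays, against 8.20, 8.33, 8.10 and 8.27 on control arrays, and over 20 genes of G2 and M phase 7.28, 7.26 and 8.75, against 7.33, 7.48, 7.12 and 7.13. Their median differences were 0.28 and 0.49 with FTY replicate 3, and -0.06 and -0.01 without it. FTY replicate 3 was the highest of the 25 arrays for 14 of the 17 and 19 of the 20 genes. Top2a, which untangles DNA before division, had 7.72, 7.75 and 10.41 on FTY arrays, against 7.95, 8.17, 7.46 and 7.55 on control arrays (0.84 ± 0.46, and -0.05 without FTY replicate 3). Mki67, the proliferation marker Ki-67, had 7.40, 7.34 and 9.99 on FTY arrays, against 7.78, 8.07, 7.30 and 7.06 on control arrays. Rrm2 and Uhrf1, genes of DNA synthesis and of its methylation, reached 10.45 and 9.58 on FTY replicate 3, against at most 7.49 and 6.64 on the other FTY arrays.
Of these genes 1 of 17 in G1 and S phase was called (5.88%) and 0 of 20 in G2 and M phase (0.0%), close to the 2.73% of all genes. That gene was Pcna, the clamp of DNA polymerase. It had 11.33, 11.34 and 11.89 on FTY arrays, against 11.18, 11.04, 10.95 and 11.13 on control arrays, and rose by 0.45 ± 0.11 (adjusted p = 0.0326). Without FTY replicate 3 the difference was 0.26 and was not called. Slbp, which binds histone mRNA, also did not overlap, with 9.97, 9.99 and 10.58 on FTY arrays and 9.94, 9.93, 9.74 and 9.74 on control arrays, and did not pass (0.34 ± 0.10, adjusted p = 0.0788). Bub1, a kinase of the spindle checkpoint, differed by 0.74 ± 0.23 and by 0.34 without that array.

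**Figure D4:**
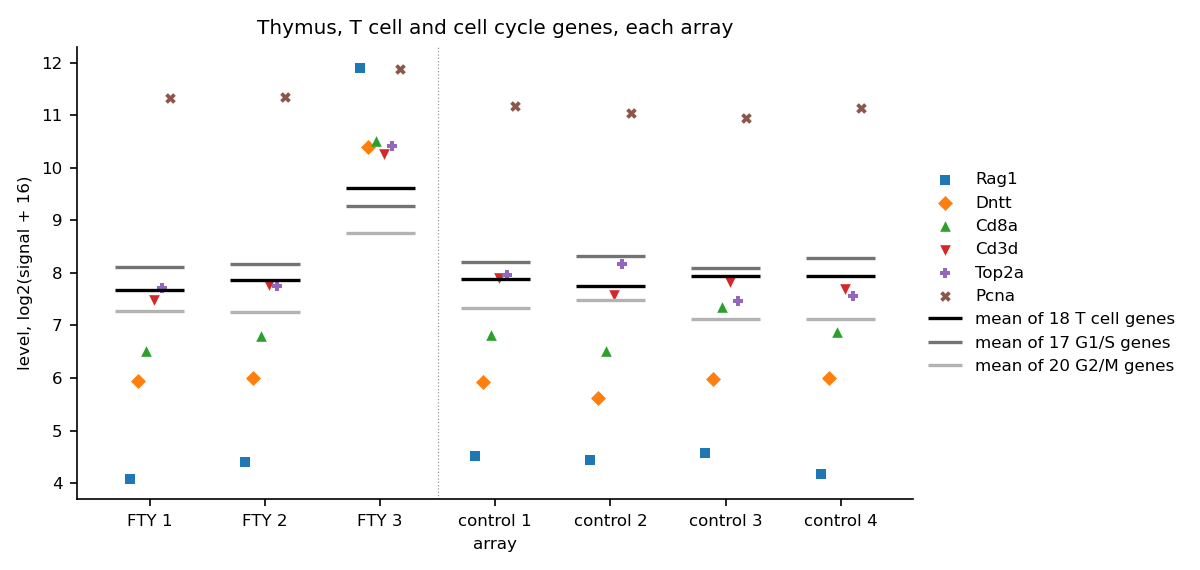
Levels as log2(signal + 16) of thymus genes (Rag1, Dntt), T cell genes (Cd8a, Cd3d) and cell cycle genes (Top2a, Pcna) on each of 3 FTY and 4 control arrays, with horizontal lines for the means of 18 T cell, 17 G1/S and 20 G2/M genes. FTY replicate 3 stands at 11.91 for Rag1 against 4.09 to 4.57 on the other 6 arrays, and its 3 list means are the highest.

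Other white cells gave few calls. Of 12 genes of natural killer and cytotoxic cells 1 fell (8.33%, against 2.73% of all genes): Klrd1, a receptor chain of natural killer cells (-0.56 ± 0.15), with 8.34, 8.60 and 8.41 on FTY arrays and 9.29, 8.79, 9.12 and 8.86 on control arrays. The granule protease Gzma had 9.75, 10.08 and 9.78 on FTY arrays, against 11.26, 9.91, 10.43 and 10.15 on control arrays, and did not pass (-0.57 ± 0.32). Control replicate 1 was the highest array for both genes. The 4 natural killer markers summed to a signal of 1472, 1853 and 1587 on FTY arrays, against 3713, 1694, 2377 and 1983 on control arrays, which overlap. Klrd1 was called neither without control replicate 1 nor without any 1 FTY array.
Of 15 genes of monocytes and interstitial macrophages 2 fell (13.3%, against 2.73% of all genes). Ccr2, the receptor that brings classical monocytes into tissue, had 8.42, 8.75 and 8.47 on FTY arrays, against 9.20, 9.17, 9.48 and 9.77 on control arrays (-0.86 ± 0.20, adjusted p = 0.0288). Cx3cr1, the fractalkine receptor of patrolling monocytes, had 7.10, 7.39 and 7.10 on FTY arrays, against 7.70, 7.74, 8.34 and 7.90 on control arrays (-0.72 ± 0.19, adjusted p = 0.0491), while its other probe set differed by 0.29. Csf1r, carried by monocytes and macrophages at large, differed by 0.03 ± 0.09, and the list median was -0.04. Neither gene was called without FTY replicate 3 or without control replicate 4, the control array with the highest monocyte list mean.
None of the genes of neutrophils (8 tested), alveolar macrophages (13), dendritic cells (13), lung endothelium (24), barrier junctions (16), ciliated cells (14) or airway secretory cells (15) was called. Their median differences lay between -0.08 and 0.03, against -0.01 over all genes.

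Among structural and signalling genes single members fell in several lists, and no list except those above had more than 2 calls. Shares of 4.35% to 9.09% stand against 2.73% of all genes, and 1 call in a list of this size is near that background. Col1a1, the main collagen chain, had 9.22, 9.35 and 8.96 on FTY arrays, against 9.46, 9.79, 9.80 and 9.99 on control arrays (-0.58 ± 0.14, 1 of 23 fibroblast genes). Pdgfrb, a receptor of pericytes, fell by 0.35 ± 0.09 (1 of 15). Etv5, a factor of alveolar type 2 cells, fell by 0.66 ± 0.14 (1 of 14). Tslp, an alarm cytokine of epithelium, had 6.63, 7.16 and 6.69 on FTY arrays, against 7.49 to 7.52 on all 4 control arrays, and fell by 0.69 ± 0.13 (adjusted p = 0.00966).
Of 22 p53 targets tested, Plk2 fell by 0.79 ± 0.16 and Sesn1 by 0.37 ± 0.10, while Cdkn1a, the p21 inhibitor of the cycle, had 11.61, 11.30 and 11.10 on FTY arrays and 11.34, 9.80, 9.72 and 12.02 on control arrays and did not pass. The other probe set of Plk2 differed by 0.17. Cd55, which protects cells from complement, fell by 0.47 ± 0.11, and Id2, an inhibitor of helix-loop-helix factors, by 0.46 ± 0.12. Col1a1, Pdgfrb, Etv5, Tslp, Plk2, Sesn1, Cd55 and Id2 were not called without FTY replicate 3 or with the Gapdh ratio as a covariate. With 1 array left out at a time, Pdgfrb was called only without control replicate 1 and Id2 only without control replicate 2.
Some large decreases fell outside the lists. Prdm8, a histone methyltransferase family member, had 6.33, 6.12 and 6.42 on FTY arrays, against 6.98, 8.16, 8.43 and 7.96 on control arrays, and fell by 1.59 ± 0.24 (adjusted p = 0.00461). Prr5l, which binds the kinase complex mTORC2, had 8.68, 8.80 and 8.29 on FTY arrays, against 9.24, 9.35, 9.76 and 9.66 on control arrays (-0.91 ± 0.14, adjusted p = 0.00461). Both were called without each array in turn. Robo2, a receptor of Slit proteins, fell by 0.90 ± 0.17, the growth factor gene Gdnf by 0.88 ± 0.20 and Tet1, an oxidase of methylated cytosine, by 0.86 ± 0.18. The transcripts Gm6958 (-1.89 ± 0.42), 2410022M11Rik (-0.94 ± 0.16) and D430019H16Rik (-0.83 ± 0.16) fell too. Among the 15 largest increases, Tmem252 (1.26 ± 0.31) and Shank1 (0.90 ± 0.21), a scaffold known from synapses, belonged to no list.

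Genes of fat and of cardiac muscle varied between arrays in both groups. Of 13 genes of white and brown fat none was called, with a median of 1.69: Ucp1, the heat-producing protein of brown fat, had 10.86, 4.93 and 11.79 on FTY arrays, against 4.79, 9.36, 5.36 and 4.77 on control arrays. Of 17 cardiac genes none was called, with a median of 0.67, and array means were 10.78, 9.95 and 9.73 on FTY arrays and 9.02, 10.45, 9.90 and 8.95 on control arrays. Cxcl13, a chemokine of B cell follicles, had 9.69, 8.44 and 10.23 on FTY arrays, against 7.93, 8.13, 7.50 and 7.60 on control arrays, and did not pass (1.66 ± 0.70, adjusted p = 0.211). The groups did not overlap for Cxcl13, and the 2 FTY arrays with high fat genes were the higher ones. Of 19 genes induced by glucocorticoids none was called, while 17 lay above 0, against 5977 of all 12929, with a median of 0.21, or 0.04 without FTY replicate 1. The share of these tissues in the antibody result was not tested beyond the covariates above.

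FTY720 was set directly against the 2 other compounds to ask whether its lung profile differed at the same dose. fTyS carries a phosphonate in place of the phosphate that FTY720 gains in the body, and SEW-2871 is an agonist of S1pr1 that is not a sphingosine analogue. Between FTY and fTyS no gene was called (0.0%; 769 genes, 5.95%, at an unadjusted p under 0.05 in limma; smallest adjusted p = 0.0697), although 827 were called with array weights. Between FTY and SEW none was called either (0.0%; 1178 genes, 9.11%, unadjusted; smallest adjusted p = 0.257), although 807 were called with array weights. The intervals show what these tests leave: FTY minus fTyS was -1.29 for Dbp (95% interval -2.30 to -0.29), 0.88 for Creb5 (0.46 to 1.30) and -0.70 for Prdm8 (-1.25 to -0.16), each with an adjusted p over 0.05. For Jchain it was -0.41 (-1.63 to 0.81), for Hspa1a 0.21 (-0.81 to 1.24) and for S1pr3 -0.02 (-0.24 to 0.20).
FTY minus SEW was -1.65 for Dbp (-2.66 to -0.65), -0.72 for Per3 (-1.35 to -0.10) and 0.71 for Arntl (-0.10 to 1.53). It was 0.27 for Prdm8 (-0.27 to 0.82), 0.07 for Prr5l (-0.25 to 0.38) and -0.54 for Jchain (-1.76 to 0.68). The 3 compounds share the 4 control arrays, so their differences from control are given side by side only. Dbp differed from control by -2.69 with FTY, -1.40 with fTyS and -1.03 with SEW, and passed with FTY alone. Jchain differed by 2.46 with FTY, 2.87 with fTyS and 3.001 with SEW, and Nr4a3 by 1.33 with FTY, 1.59 with fTyS and 1.42 with SEW, all called. Prdm8 differed by -1.59 with FTY, -0.89 with fTyS and -1.87 with SEW, and the value with fTyS did not pass.

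The same compound was given to irradiated mice, and this comparison shares no array with that in unirradiated lung. Between radiation+FTY and radiation alone 391 genes differed (3.02%), and the interaction of radiation with FTY720 was called for 885 genes (6.85%). The count was 6 with only its own arrays fitted, 38 without radiation+FTY replicate 1 and 90 with muscle and fat covariates, and the counts that follow rest on it. None of the 353 genes called in unirradiated lung was called the same way in irradiated lung, and 24 were called the opposite way. Signs were the same for 89 genes and opposite for 264, while 53.9% of all genes had opposite signs. The 62 genes that rose had a median difference of 0.47 in unirradiated lung and -0.17 in irradiated lung, and the 291 that fell had -0.40 and 0.09.
Nr4a3 had a mean of 7.91 ± 0.24 with radiation+FTY and 9.42 ± 0.10 with radiation alone (SD, n = 3 each), a difference of -1.50 ± 0.30 (adjusted p = 0.0162 in limma), against 1.33 ± 0.28 without radiation. Tnfrsf12a had the same reversal, with -0.87 ± 0.14 in irradiated and 0.82 ± 0.13 in unirradiated lung, both called. Hspa1a differed by -1.58 ± 0.49 in irradiated lung and Dnajb1 by -0.87 ± 0.25, neither called there. Dbp averaged 11.10 ± 0.09 with radiation+FTY and 10.28 ± 0.58 with radiation (SD, n = 3 each), a difference of 0.82 ± 0.48. Antibody genes were mixed. Jchain (0.73 ± 0.59 with radiation) and Iglv1 (1.27 ± 0.65) were above 0 in both settings, without a call in irradiated lung. Igha was above 0 without radiation (1.88) and below 0 with it (-0.42). Ccr2 was below 0 in both settings (-0.66 ± 0.22). The genes of smallest p in irradiated lung were others: Rspo1, a secreted activator of Wnt signalling, rose by 0.78 ± 0.10 with radiation+FTY (0.11 ± 0.09 without radiation), and Jun fell by 0.54 ± 0.09 (-0.10 ± 0.08 without radiation). Of the 30 genes of largest change, 19 had a called interaction, but these genes were chosen on FTY minus control, which is a term of the interaction, so this count is a description only.

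**Figure D5:**
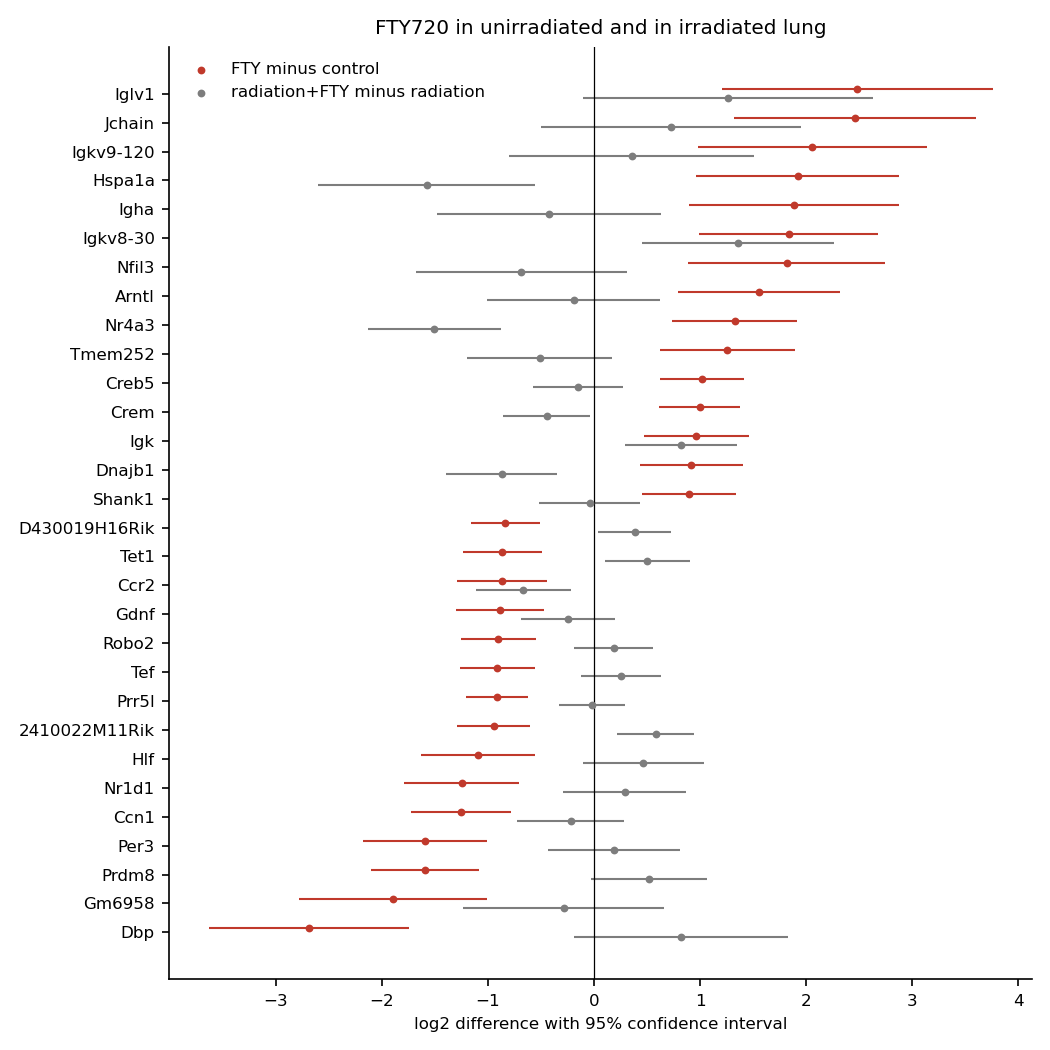
Log2 differences with 95% confidence intervals for the 15 largest increases and the 15 largest decreases with FTY720, as FTY minus control (red, upper point of each pair) and as radiation+FTY minus radiation (grey, lower point). Dbp stands at -2.69 and 0.82, and Nr4a3 at 1.33 and -1.50.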

How the data were processed

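Lung RNA of 25 mice was measured on Affymetrix arrays. The deposited values are signal intensities per probe set on a linear scale, which the authors made with Affymetrix GCOS, per the submitters' processing notes; the version, scaling and detection calls are not given in the sources used here. From these, log2(signal + 16) was computed, control probe sets (64) were set aside, the probe set of highest mean was kept per gene (18193 genes), and genes whose mean level exceeded the 40th percentile, 6.49, were tested (12929). limma 3.58.1 in R 4.3.3 fitted 8 group means to all 25 arrays with a trended prior, and p-values were adjusted by Benjamini-Hochberg. Comparisons were FTY with control, fTyS and SEW, radiation+FTY with radiation, and the interaction. Genes named were the 15 largest non-overlapping called changes each way and the members of smallest p in each of 41 lists (up to 6, up to 12 for lymphocyte and cell cycle lists, all for S1P), and up to 5 each way in the other comparisons; Alb, Prss16, Ccr9, Ccl25, Glycam1 and some further list members, such as Csf1r, Cdkn1a, Per1 and Hspa8, were added with values in view. The members and lists were chosen with earlier results of these data known. Alternatives covered the pseudocount, filter, normalization, probe set choice, covariates, array weights, arrays left out and a replicate block. The replicate numbers did not pair the arrays: same-numbered FTY and control arrays had residual correlations of -0.141, -0.348 and -0.01. The fit was tested on simulated data.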

Additional observations from a re-analysis of the deposited data

Results flagged for a closer look

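Of 144 sets of 4 control values examined by Dixon's test, 8 held an array beyond the critical value. Chance gives about 1 in 20, and 8 of 144 is near that share. The sets are not independent, since list means and single members of the lists were both examined. The count therefore does not tell whether any single outlier below is due to chance. Control replicate 2 had a skeletal muscle list mean of 10.7964, against 6.3322 to 6.6189 on the other control arrays, and a Ucp1 level of 9.3576, against 4.7677 to 5.3597. Control replicate 2 was also apart for Prdm1, at 8.2408 against 8.7657 to 8.791, and for Rrm2, at 8.1074 against 7.5435 to 7.6161. Control replicate 4 had a monocyte list mean of 9.8148, against 9.4243 to 9.4751, a p53 target list mean of 9.9983, against 9.4523 to 9.5066, and a Ccr7 level of 8.7293, against 7.8837 to 7.9301. Control replicate 1 had a Tslp level of 7.4923, against 7.5151 to 7.5187, a gap far below the difference between the groups.

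For 19 of the 30 genes of largest change the interaction of radiation and FTY720 was called (limma, adjusted over all genes tested). Over all genes it was called for 885 of 12929 (6.85%). These genes were chosen on FTY minus control, which enters the interaction with a minus sign, so the directions below follow in part from the choice and are given as values only. Each value is the effect in irradiated lung minus that in unirradiated lung, on the log2 scale. It was below 0 for 8 genes that rose without radiation: Hspa1a -3.4955, Nr4a3 -2.8307, Nfil3 -2.5016, Igha -2.3065, Dnajb1 -1.787, Tmem252 -1.7698, Crem -1.441 and Creb5 -1.1655. It was above 0 for 11 genes that fell without radiation: Dbp 3.5078, Prdm8 2.1107, Per3 1.7782, Hlf 1.5582, Nr1d1 1.5356, 2410022M11Rik 1.5272, Tet1 1.3643, D430019H16Rik 1.2164, Tef 1.1682, Robo2 1.0866 and Prr5l 0.8928. The adjusted p was lowest for Nr4a3 (0.00171) and highest for Igha (0.0498).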

How the results depend on the processing

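The count of genes called with FTY720, 353 (62 higher, 291 lower), moved widely with the processing. None of the 52 called genes among the 103 followed through the alternatives changed direction, which was in part fixed in advance. Of them 30 were chosen as called genes without overlap between the groups, so leaving out arrays could not reverse them. Several other alternatives leave the difference itself unchanged. The medians of T cell and cell cycle genes, which carry no test, changed sign without FTY replicate 3. The count was 89 (20 higher, 69 lower) with the 13 unirradiated arrays fitted alone and 1 (1 higher, 0 lower) with the 7 arrays compared alone. It was 951 (283 higher, 668 lower) with array weights, 0 (0 higher, 0 lower) with the Gapdh ratio as a covariate, 164 with muscle and fat covariates (119 lower), 156 with median centring (106 lower), and 173 lower with quantile normalization. Without FTY replicate 3 and control replicate 4 it was 90 (15 higher, 75 lower). Without FTY replicate 3 and control replicate 2, an alternative chosen after seeing the data, it was 4 (2 higher, 2 lower). Leaving out 1 array gave 35 to 619 genes (3 to 181 higher, 29 to 438 lower). The medians then ran from -0.0961 to 0.8966 for T cell genes, -0.0571 to 0.4434 for G1/S genes and -0.0148 to 0.7102 for G2/M genes. With array weights, FTY against fTyS gave 827 genes and FTY against SEW 807, while leaving out 1 array gave 0 to 0 in both. Radiation+FTY against radiation gave 1249 genes with array weights, 187 with probe sets averaged per gene, 90 with muscle and fat covariates, 6 with only its own arrays, and 38 to 472 with 1 array left out. With the replicate number as a block 346 genes were called (50 higher, 296 lower), though the numbers do not pair the arrays. With probe sets averaged per gene FTY against control gave 294 genes, and 18 of the 49 called genes followed there lost their call. The causes of these moves were not tested. Few arrays and dim genes limit what these intervals can show.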
